A study of Mus musculus with 7 samples.

Results

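Extracellular matrix and basement membrane genes were followed as a set of 36 named genes. They encode collagens, laminins and their linkers, elastic fibre and adhesive glycoproteins, small leucine-rich proteoglycans and matricellular proteins. The set was chosen with earlier results of these data known, so its shares beside those of all genes are descriptive only. A member was read from probe sets annotated to that gene alone, which gave 34 members of 18193 genes on the array design used for Sertoli and TM4 cells and 33 members of 8251 genes on the design used for testis. Over both designs together 18336 genes were named. Expression of Fbn1 and Spp1 was not analysed here, and neither was that of Thbs1 in testis, where its probe set is annotated to several genes. Each gene was represented by its brightest probe set, taken by the mean over all arrays of a design. For members that read high in TM4, the TM4 arrays thus weigh in the choice for the Sertoli arrays too.

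The study used 7 mouse Affymetrix arrays of 1 colour, each a group of its own: whole testis of ERM knockout and of wild-type mice at 4 weeks, primary Sertoli cells of ERM knockout mice at 4 and at 10 weeks and of wild-type mice at 4 weeks, and the TM4 cell line with and without transfection of ERM. ERM is the ETS-family transcription factor encoded by Etv5, and the study concerns the loss of germline stem cells in its absence. TM4 is an established line derived from mouse Sertoli cells. Whether its transfection was stable or transient the labels do not state. The knockout cells at 10 weeks had no wild-type counterpart of that age. The sources used here do not say how many animals or cultures went into an array. With 1 array a group there was no replicate error, no test between groups and no p-value, and differences are given by size only. Arrays were scaled so that the trimmed mean intensity of each equalled 500, and readings below 100 were counted as below the floor. A gene was counted as higher or lower when it differed at least 2-fold with the floor in place, and where 1 of the 2 readings fell under the floor the fold is only a lower limit.

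The basement membrane of the seminiferous tubule lies between the Sertoli cells with their spermatogonia and the peritubular myoid cells, and both somatic cell types help to build it. It is a sheet of collagen IV and laminin networks, joined by nidogen and perlecan. Interstitial matrix outside it is built of fibrillar collagens, fibronectin and proteoglycans and is typically made by fibroblasts and myoid cells. Matricellular proteins such as the thrombospondins bind matrix and cell surfaces without being main structural parts.

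The arrays carried their own limits. The Etv5 probe set 1428142_at read 910.1 and 995 on the Sertoli arrays labelled ERM knockout at 4 and 10 weeks, against 709.9 on the wild-type array, and neither of the other 2 Etv5 probe sets was lower in knockout either. The labels do not state which part of the gene the mutation removes, so Etv5 does not check the labels, and "knockout" below means the array labelled so. Sertoli cell markers at or above the floor numbered 16, 15 and 16 of 16 on the Sertoli arrays labelled knockout at 4 weeks, knockout at 10 weeks and wild type. They numbered 14 and 13 of 16 on the TM4 arrays with and without ERM, where Wt1 was below the floor on both and Sox9 on the untransfected one. Germ cell markers were present in the Sertoli preparations, and their summed level was 25951 and 5023 in knockout at 4 and 10 weeks, against 27290.5 in wild type. The 5' probe set of 18S ribosomal RNA read 4551 on the 4-week knockout array, against 349 in wild type, and the other Sertoli and TM4 arrays lay between 236 and 352. Probe sets of the same gene, where they read at least 500, differed in their log2 ratio by a standard deviation of 0.22 in the 4-week Sertoli pair, 0.20 for knockout at 10 weeks over wild type, 0.27 between the knockout ages, 0.17 in TM4, 0.26 in testis and 0.64 between Sertoli and TM4 cells. That spread is between probe sets within a pair of arrays and not between animals.

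In primary Sertoli cells at 4 weeks, matrix genes of several kinds were lower in ERM knockout: the laminin chain Lamb1, the proteoglycans Bgn and Dcn, the thrombospondin Thbs1 and the fibrillar collagens Col3a1 and Col5a1. Of 30 members at or above the floor on either array, 6 were at least 2-fold lower and 0 at least 2-fold higher, or 20.0% lower against 3.18% of all genes tested, and none higher against 0.681%. The median log2 ratio of the members was -0.24, against -0.016 over all genes. Averaged over a gene's probe sets, 3 members were at least 2-fold lower, namely Lamb1, Bgn and Thbs1, whereas Col3a1, Col5a1 and Dcn stood at -0.76, -0.26 and -0.54. These averages use floored readings. Col3a1, Col5a1 and Dcn each had a probe set below the floor in knockout, which pulls their averages toward 0. The other 24 members, the laminin chains Lama1, Lama5 and Lamc1 among them, did not pass 2-fold. In such mixed preparations fewer cells of a type and less RNA per cell cannot be told apart.

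Lamb1 encodes the beta-1 chain that most laminin trimers of basement membranes contain. Its probe set 1424114_s_at read 208 on the knockout array at 4 weeks and 507 on the knockout array at 10 weeks, against 946 in wild type. The 4-week knockout was thus 4.55-fold lower than wild type, with the 10-week array in between. All 3 further detected probe sets were lower at 4 weeks as well, with log2 ratios of -1.74, -0.63 and -0.46, and the last 2 of these were below the floor in knockout.

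Bgn encodes biglycan, a small proteoglycan that binds collagen and growth factors. Probe set 1416405_at read 485 on the knockout array at 4 weeks and 1800.1 on the knockout array at 10 weeks, against 1963 in wild type, 4.05-fold lower at 4 weeks. Its 2 other probe sets gave smaller log2 ratios of -0.46 and -0.73, so the direction was shared and the size was not. Dcn encodes decorin, the related proteoglycan that spaces collagen fibrils. It read 3027 on the knockout array at 4 weeks and 6122 on the knockout array at 10 weeks, against 6207 in wild type, so that the 4-week knockout array stood alone at 2.05-fold lower and the other 2 arrays were close together. Its dimmer probe set 1441506_at, near the floor, had a log2 ratio of -0.047.

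Thbs1 encodes thrombospondin 1, which can activate latent TGF-beta. Its probe sets 1460302_at and 1450377_at read alike. The first read 190.4 on the knockout array at 4 weeks and 1582 on the knockout array at 10 weeks, against 733 in wild type, and the second read 216 on the knockout array at 4 weeks and 1469.8 on the knockout array at 10 weeks, against 701 in wild type. Thbs1 was therefore 3.85-fold lower in knockout at 4 weeks and 2.16-fold higher in knockout at 10 weeks, relative to the same wild-type array.

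Fibrillar collagens differed among themselves in their ratios. Col3a1, the chain of collagen III, read 359 on the knockout array at 4 weeks and 248 on the knockout array at 10 weeks, against 953 in wild type, which made it 2.65-fold lower at 4 weeks. Its dimmer probe set 1427884_at crossed the floor, at 38.2 in knockout at 4 weeks, against 108 in wild type. Col5a1, a chain of the collagen V that nucleates fibrils, was at least 2.14-fold lower on probe set 1416740_at (67.9 in knockout, against 214 in wild type), but its 2 other probe sets stood at 0.11 and 0.20. Its partner Col5a2 had a log2 ratio of -0.76. The collagen I chains stayed within 2-fold on the probe sets used, Col1a1 at 0.38 and Col1a2 at -0.32. The other Col1a1 probe set had -0.79, a limit because knockout was below the floor.

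**Figure D1:**
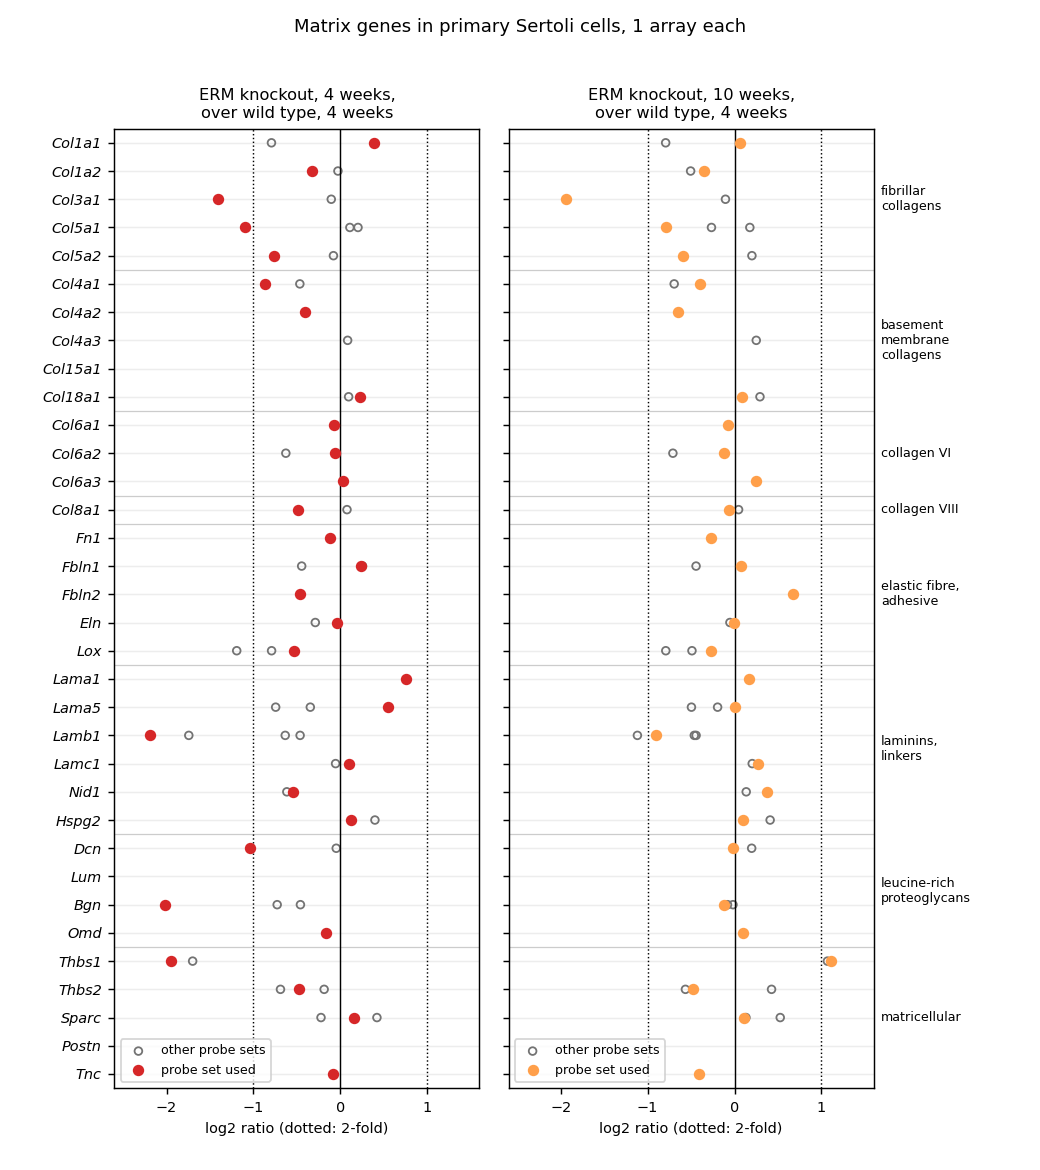
Log2 ratios of the matrix genes in Sertoli cells, ERM knockout at 4 weeks (left) and at 10 weeks (right) over the same wild-type array, with filled points for the probe set used, open points for the gene's other detected probe sets and dotted lines at 2-fold. At 4 weeks Lamb1 (-2.19), Bgn (-2.02) and Thbs1 (-1.94) lie farthest left, and at 10 weeks Thbs1 (1.11) lies to the right and Col3a1 (-1.94) to the left.

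The basement membrane components did not differ in one direction. Col4a1 and Col4a2, the 2 chains of the common collagen IV trimer, had log2 ratios of -0.86 and -0.40, and Col4a1 had -0.47 on its second probe set. Nid1, or nidogen, which links laminin to collagen IV, read 969.5 on the knockout array at 4 weeks and 1827 on the knockout array at 10 weeks, against 1415 in wild type. Lama1, the alpha-1 chain of the laminin of early basement membranes, went the other way and read 1428 on the knockout array at 4 weeks and 948 on the knockout array at 10 weeks, against 845 in wild type, 1.69-fold higher at 4 weeks on its only probe set. Lama5 had 0.55 on one probe set and -0.74 and -0.35 on the others, so that no direction can be given. Lamc1, the gamma chain, Hspg2, which encodes perlecan, and Col18a1, whose fragment is endostatin, stood at 0.097, 0.13 and 0.22.

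Among the remaining members, Lox was lower on all its probe sets without passing 2-fold on the brightest. Lox, the enzyme that cross-links collagen and elastin, read 384 on the knockout array at 4 weeks and 462 on the knockout array at 10 weeks, against 557 in wild type on that one. Its log2 ratio at 4 weeks was -0.54, with -1.19 and -0.79 on the dimmer ones, both limits because knockout was below the floor. Sparc, a collagen-binding matricellular protein, read 10881 on the knockout array at 4 weeks and 10604 on the knockout array at 10 weeks, against 9797 in wild type. Its 3 values lay within 1.11-fold of each other on that probe set. The collagen VI chains Col6a1, Col6a2 and Col6a3 had log2 ratios of -0.072, -0.063 and 0.033, with -0.63 on the other Col6a2 probe set. Elastin (Eln), fibronectin (Fn1) and tenascin C (Tnc) stood at -0.036, -0.11 and -0.08. Fibulins Fbln1 and Fbln2 were at 0.24 and -0.47, and Col8a1, Thbs2 and Omd at -0.49, -0.48 and -0.17. Fbln1 was below the floor in wild type, and Fbln2 and Thbs2 in knockout, so these ratios are only limits. Other detected probe sets gave -0.29 for Eln, 0.25 and -0.45 for Fbln1, 0.076 for Col8a1 and -0.69 and -0.19 for Thbs2. Of these, 0.25 and 0.076 are limits too, with wild type below the floor. Col4a3, Col15a1, Lum and Postn were below the floor on both arrays on the probe set used, while the other Col4a3 probe set read 106 in knockout, against 80.3 in wild type.

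Genes that process or bind matrix were counted from lists drawn up by function, with earlier results of these data known. Over all genes, 3.18% were lower and 0.681% higher in knockout Sertoli cells at 4 weeks. Among collagen processing enzymes 4 of 20 were lower and none higher: the lysyl oxidase relative Loxl1 (2.71-fold), the prolyl hydroxylase subunit P4ha2 (2.66-fold), the collagen chaperone Serpinh1 (2.21-fold) and the procollagen protease Adamts3 (2.13-fold). Of other interstitial matrix genes 4 of 39 were lower, namely Sparcl1 (5.09-fold), Ecm1 (3.25-fold), Col12a1 (2.51-fold) and Ltbp3 (2.24-fold), and none was higher. Of other basement membrane genes 1 of 17 was lower, the laminin chain Lama4 (2.76-fold), and 1 higher, the netrin Ntn4 (2.15-fold, 2282 in knockout and 1060.0 in wild type). Matrix receptors were lower in 4 of 25: the syndecan Sdc1 (3.03-fold), the hyaluronan receptor Cd44 (2.35-fold) and the integrins Itga7 (at least 2.55-fold) and Itga4 (2.03-fold). In the list of TGF-beta and CCN genes 2 of 16 were lower, Ccn2 or connective tissue growth factor (3.53-fold, 856 in knockout and 3020.3 in wild type) and Ccn4 (at least 2.32-fold). The medians of these 5 lists were -0.11, -0.22, 0.14, -0.10 and -0.41 in log2 units.

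Markers of other cells differed between the same arrays. Over all genes, 3.18% were lower and 0.681% higher in knockout at 4 weeks. In knockout at 10 weeks over wild type, 4.22% were lower and 1.62% higher. Macrophage markers were at least 2-fold lower in 6 of 14, with a summed level of 5933 in knockout at 4 weeks and 9822 at 10 weeks, against 14294 in wild type, and C1qa was below the floor on both knockout arrays. Fibroblast markers were lower in 1 of 8, the actin-severing Gsn, with summed levels of 2914 and 4433 in knockout at 4 and 10 weeks, against 4724, and Thy1 was below the floor on all 3 arrays. Peritubular and smooth muscle markers passed 2-fold in neither direction in 10 genes, with sums of 11379 and 14934 in knockout, against 9462, and Tagln was below the floor in the 4-week knockout. Endothelial markers summed to 1664 and 2082 in knockout, against 1536, and Pecam1, Tek and Vwf were below the floor on all 3 arrays. Leydig cell markers summed to 4429 and 7102 in knockout at 4 and 10 weeks, against 3341 in wild type, with 1 of 7 higher and 1 lower at 4 weeks, and all 7 were above the floor on each array. In knockout at 10 weeks 3 of 7 were higher than in wild type, Cyp17a1, Cyp11a1 and Star. The part of these cells, and of the 18S signal, in the matrix gene differences was not tested.

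Promoter sequence of 4 of the 6 members that were lower at 4 weeks, all but Thbs1 and Dcn, is shown. These genes share that direction on the probe set used, but the 2 other detected probe sets of Col5a1 stood at 0.11 and 0.20. The other Col3a1 probe set read 38.2 in knockout, below the floor, against 108 in wild type, so its -0.10 is only a limit. Each line gives the 250 bases before the annotated start on the plus strand of GRCm38.p6, from RefSeq. Capitals mark AGGAAG, the site named after the PEA3 group to which ERM belongs, TATAAA and the GC box GGGCGG, on either strand; none of these overlapped another kind in the 4 promoters, though 2 GC boxes before Bgn overlap each other. The windows are chr12:31265043-31265292 for Lamb1, chrX:73483351-73483600 for Bgn, chr1:45311288-45311537 for Col3a1 and chr2:27886175-27886424 for Col5a1.
Lamb1: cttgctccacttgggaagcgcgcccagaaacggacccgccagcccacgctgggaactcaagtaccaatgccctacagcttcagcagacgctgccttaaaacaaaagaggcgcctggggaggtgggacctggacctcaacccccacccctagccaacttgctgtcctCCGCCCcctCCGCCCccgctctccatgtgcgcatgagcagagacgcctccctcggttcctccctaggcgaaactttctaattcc
Bgn: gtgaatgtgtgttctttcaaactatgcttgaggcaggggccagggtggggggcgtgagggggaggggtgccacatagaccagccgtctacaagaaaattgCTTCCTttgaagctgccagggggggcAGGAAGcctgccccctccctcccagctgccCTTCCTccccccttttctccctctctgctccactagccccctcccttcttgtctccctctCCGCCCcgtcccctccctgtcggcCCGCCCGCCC
Col3a1: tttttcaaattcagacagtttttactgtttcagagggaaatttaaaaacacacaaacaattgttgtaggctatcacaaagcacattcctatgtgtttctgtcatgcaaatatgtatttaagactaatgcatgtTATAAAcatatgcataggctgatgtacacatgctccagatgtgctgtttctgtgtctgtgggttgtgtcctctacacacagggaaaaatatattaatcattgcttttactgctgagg
Col5a1: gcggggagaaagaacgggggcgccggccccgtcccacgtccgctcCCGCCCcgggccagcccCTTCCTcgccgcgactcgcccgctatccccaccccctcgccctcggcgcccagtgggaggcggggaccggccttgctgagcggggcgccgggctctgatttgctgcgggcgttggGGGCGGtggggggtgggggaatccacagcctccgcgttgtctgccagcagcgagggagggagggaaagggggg
AGGAAG occurred 3 times before Bgn and 1 time before Col5a1, and these letters are not in the windows of Lamb1 and Col3a1. The Col3a1 window held 1 TATAAA, while the GC box occurred 2 times before Lamb1, 3 times before Bgn and 2 times before Col5a1. AGGAAG was present in 12 of 31 promoters listed for 25 members, or 38.7%, and in 29.5% of all 32851 promoters of that length. TATAAA was in 19.4% of member promoters and 12.4% of all, and GGGCGG in 54.8% and 32.7%. These matches describe the sequence and do not show binding.

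In knockout Sertoli cells at 10 weeks, Thbs1, Bgn, Lamb1, Dcn and Fbln2 were higher than in knockout at 4 weeks, and no member was at least 2-fold lower. That made 5 of 29 members higher, 17.2% against 4.19% of all genes, where 3.51% of all genes were lower. The median of the members was 0.029, against -0.03 over all genes, so the other 24 members lay on both sides of 0. The comparison shares the 4-week knockout array with the one above and is therefore no separate evidence on that array.

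Thbs1 was 8.31-fold higher at 10 than at 4 weeks, Bgn 3.71-fold higher, Lamb1 2.44-fold higher and Dcn 2.02-fold higher. The other Thbs1 probe set had a log2 ratio of 2.77, those of Bgn 0.44 and 0.65, and the detected ones of Lamb1 0.63 and 0.19, and that of Dcn 0.24. Here 0.19 and 0.24 are limits, with the 4-week reading below the floor. Only Thbs1 was thus past 2-fold on every detected probe set among these. Fbln2, which encodes the elastic fibre and basement membrane protein fibulin 2, read 219.9 at 10 weeks and 90.7, below the floor, at 4 weeks, at least 2.20-fold higher. Nid1 had a log2 ratio of 0.91 and 0.75 on its second probe set. Lama1 and Lama5 stood at -0.59 and -0.54. Averaged over a gene's probe sets, 2 members were at least 2-fold higher, Thbs1 and Fbln2.

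Set against the wild-type array of 4 weeks, the 10-week knockout differed in few members. Of 30 members 1 was higher, or 3.33% against 1.62% of all genes, and 1 was lower, or 3.33% against 4.22%. The higher one was Thbs1 and the lower one Col3a1, at 3.84-fold lower. The Col3a1 count rests on 1427883_a_at, whose name marks possible cross-hybridisation, and without such probe sets Lamb1 was the lower member. The other Col3a1 probe set read 46.2 in knockout at 10 weeks, below the floor, against 108 in wild type. Its log2 ratio of -0.10 is therefore only a limit set by the floor. Both shares were near those of all genes. Bgn and Dcn had log2 ratios of -0.12 and -0.02, while Lamb1 stood at -0.90 with -1.12 on its second probe set. Both main collagen IV chains were below wild type on each of their probe sets, with -0.65 for Col4a2 and -0.40 and -0.69 for Col4a1. Col4a3 had 0.25 on its only detected probe set, a limit because wild type was below the floor. Age and genotype cannot be told apart in this pair, and 11 of 12 germ cell markers, all but Acrv1, were at least 2-fold lower on the 10-week array than on either other Sertoli array. Their part in the matrix gene differences was not tested.

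**Figure D2:**
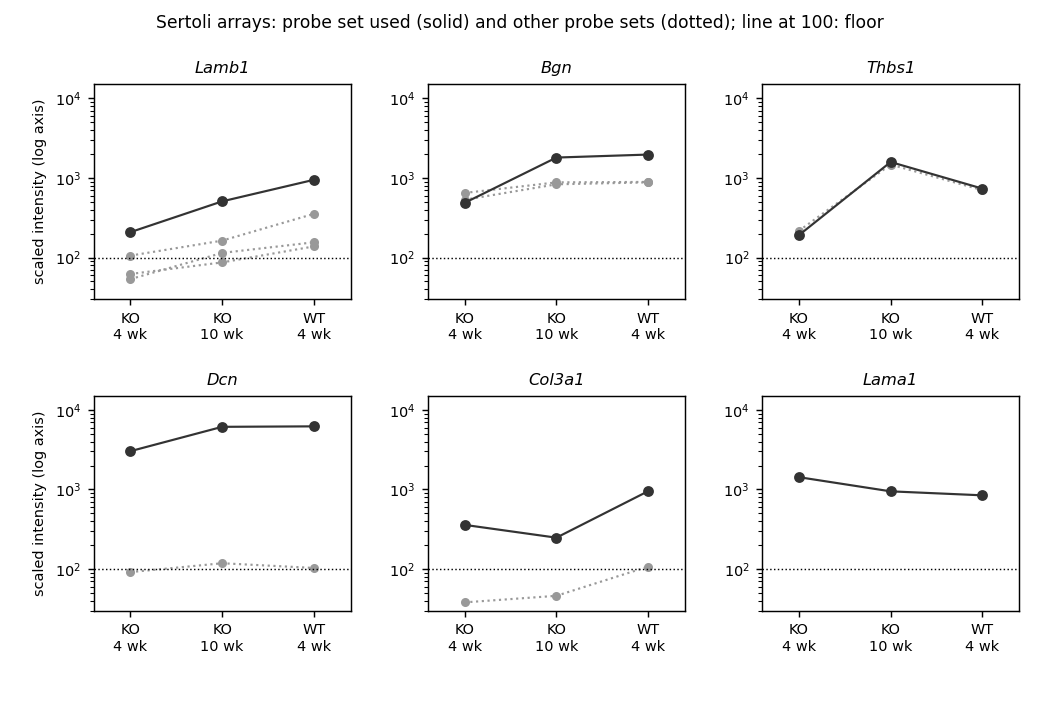
Scaled intensity (log axis) of every probe set of 6 matrix genes on the Sertoli arrays labelled ERM knockout (KO) at 4 and 10 weeks and wild type (WT) at 4 weeks, with a solid line for the probe set used, dotted lines for the others and a dotted horizontal line at the floor of 100; lines join readings of the same probe set. Both Thbs1 probe sets are lowest in knockout at 4 weeks and highest in knockout at 10 weeks, Dcn is low only in knockout at 4 weeks on its bright probe set, and Col3a1 is below wild type on both knockout arrays.

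Between the knockout ages, 4.19% of all genes were higher and 3.51% lower at 10 weeks. Of the pathway lists, TGF-beta and CCN genes held the largest share of genes past 2-fold between these ages. In that list 6 of 16 were higher at 10 weeks and none lower: Ccn2 (4.62-fold, 3956 at 10 weeks and 856 at 4 weeks), the inhibitory Smad7 (3.04-fold), the ligand Tgfb2 (at least 2.99-fold), Ccn3 (at least 2.67-fold), Ccn1 (2.62-fold) and the co-receptor Tgfbr3 (2.03-fold). Collagen processing enzymes were higher in 5 of 21, namely P4ha2 (3.33-fold), Adamts3 (3.33-fold), Tll1 (at least 3.25-fold), Loxl1 (3.04-fold) and Serpinh1 (2.12-fold). Other interstitial matrix genes were higher in 3 of 39 (Ltbp3, Sparcl1 and Col12a1), matrix receptors in 2 of 25 (Cd44 and Itgav) and other basement membrane genes in 1 of 15 (Egflam), and none of these lists held a lower gene. Against wild type at 4 weeks, the TGF-beta and CCN list had 2 of 16 higher in knockout at 10 weeks, Tgfb3 (2.70-fold) and Tgfb2 (2.37-fold). Other interstitial matrix genes had 1 higher and 4 lower of 39 in that pair, where 1.62% of all genes were higher and 4.22% lower. Ntn4 read 2436 in knockout at 10 weeks, against 1060.0 in wild type. Macrophage markers were higher at 10 than at 4 weeks in 4 of 13, and their part in these differences was not tested.

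TM4 cells gave a different picture of matrix expression, with high readings for fibrillar collagens, Fn1 and Thbs2. Relative to untransfected TM4, wild-type Sertoli cells were at least 2-fold lower in 20 of 33 members and at least 2-fold higher in 4, or 60.6% and 12.1%, against 16.1% and 17.8% of all genes. The members' median log2 ratio was -1.50 and that of all genes -0.075. With the values as deposited, which are not on a common scale, the same pair had 15 members lower and 6 higher, while 1219 genes overall were lower and 5771 higher, in place of 2718 and 3011. The median of all genes was then 0.60.

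All 5 fibrillar collagen chains were lower in Sertoli cells. Col1a1 read 349 in wild-type Sertoli cells, against 5974 in untransfected TM4, and Col1a2 read 877 in Sertoli cells, against 11632 in TM4. Col5a2 was 18.4-fold lower, Col5a1 12.3-fold lower and Col3a1 6.05-fold lower. Their other probe sets gave smaller log2 ratios, -1.81 for Col5a2, -1.75 and 0.025 for Col5a1 and -0.82 for Col3a1. Averaged over probe sets, these genes stood at -3.01, -1.78 and -1.71. The knockout Sertoli arrays lay in the same low range, with Col1a1 at 455 and 365 at 4 and 10 weeks. Col8a1 and the 3 collagen VI chains were also lower in Sertoli cells, by 2.16-fold for Col6a1 to 9.91-fold for Col8a1.

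Fibronectin and thrombospondin 2 stood farthest apart on the probe sets used. Fn1, the adhesive glycoprotein that cells assemble into fibrils, read 224 in wild-type Sertoli cells, against 10450.3 in TM4, 46.7-fold lower. Its dimmer probe set 1437218_at, below the floor in Sertoli cells, had a log2 ratio of -1.35, and over both probe sets Fn1 averaged -3.45, against -3.97 for Col1a2 and -3.75 for Col1a1. Thbs2, which limits angiogenesis, read 139 in Sertoli cells, against 10049 in TM4, 72.1-fold lower. Its other probe sets gave -4.87 and -4.64 in log2 units, and they read 197 and 207 in wild-type Sertoli cells. The probe set used is the brightest through TM4 and not in Sertoli cells. Bgn, Lamb1, Thbs1, Tnc, Fbln2 and Omd were lower in Sertoli cells too, with log2 ratios from -3.17 for Fbln2 to -1.48 for Tnc. Col4a3 and Lama5 were lower as well, at -1.68 and -1.34, but other Lama5 probe sets were within 2-fold. The Col4a3 ratio is a limit, as its reading in Sertoli cells was below the floor.

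The 4 members higher in Sertoli cells were Lama1, Col18a1, Dcn and Nid1. Lama1 read 845 in wild-type Sertoli cells, against 104 in TM4, 8.10-fold higher. Dcn read 6207 in Sertoli cells, against 853 in TM4, 7.28-fold higher, and its dimmer probe set had a log2 ratio of -0.29. Nid1 read 1415 in Sertoli cells, against 323 in TM4, 4.38-fold higher, but had a log2 ratio of 0.16 on its second probe set. For Col18a1 the probe sets were at odds, with 2.96 on 1418237_s_at, which can cross-hybridise, and -0.33 on 1426955_at, so that its direction depends on the probe set.

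Several members, of the basement membrane and of other matrix, differed by less than 2-fold between the cell types on at least 1 probe set. Hspg2 had a log2 ratio of 0.053 with -0.76 on its other probe set, Col4a2 of -0.22 and Sparc of 0.71. Col4a1 was 3.52-fold lower in Sertoli cells on probe set 1426348_at and at -0.24 on 1452035_at. Lamc1 had 0.66 and -1.58 on its 2 probe sets, and Eln -0.13. A 2-fold difference was thus not shared by both probe sets of Col4a1 or Lamc1. Lox had -0.86. Fbln1, Col15a1 and Lum were below the floor in Sertoli cells, so that they were at least 1.97-, 1.24- and 1.24-fold lower there. The other Fbln1 probe sets stood at -1.11 and 0.25. Postn was below the floor in both cell types.

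**Figure D3:**
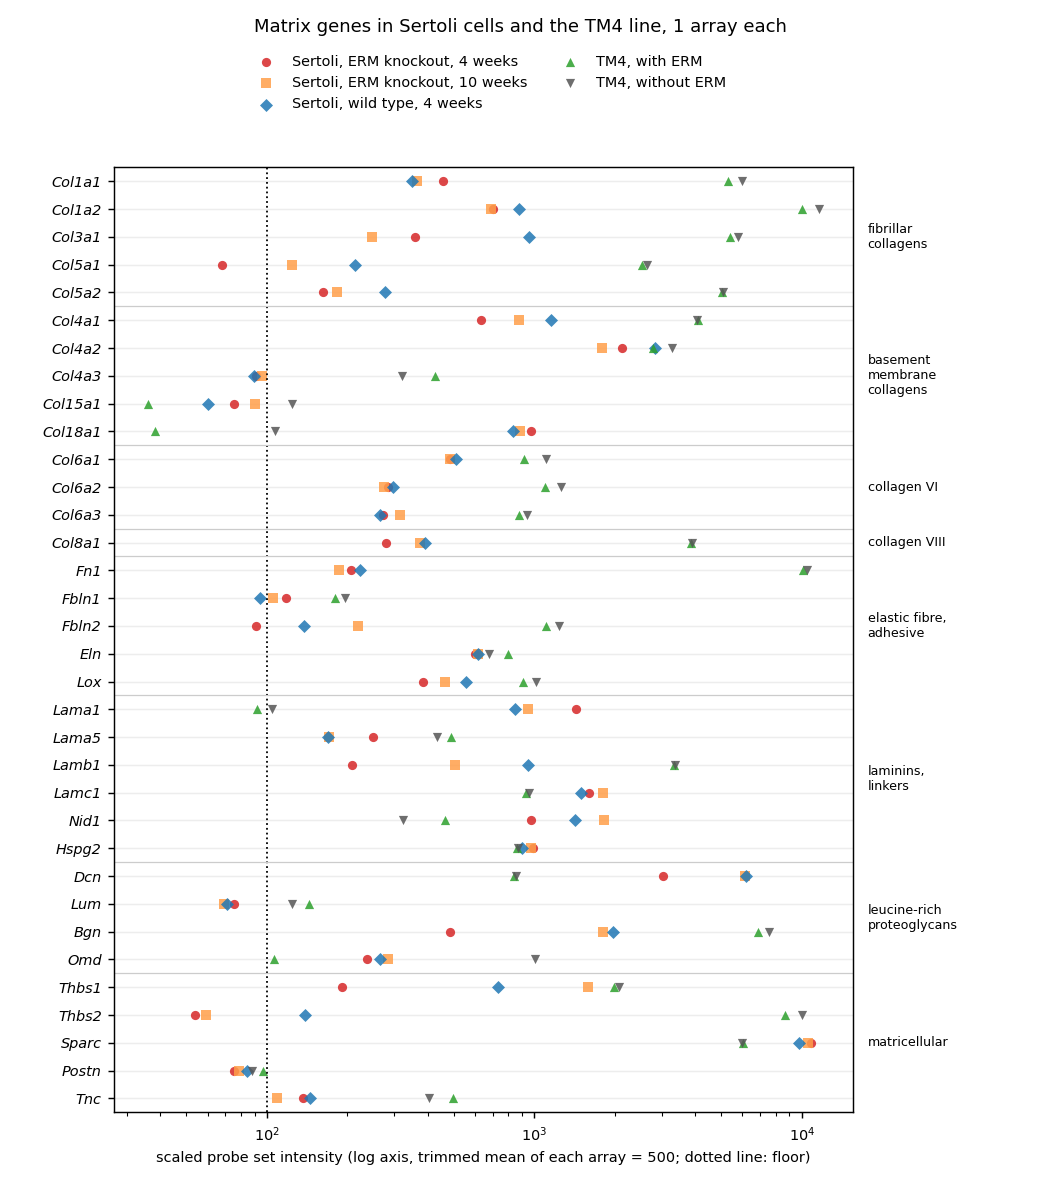
Scaled intensity (log axis) of the probe set used for each of 34 matrix genes on the Sertoli and TM4 arrays, grouped by the kind of protein, with the floor of 100 as a dotted line. Both TM4 arrays lie far to the right of the 3 Sertoli arrays for the fibrillar collagens, Fn1 and Thbs2 and to the left for Lama1 and Dcn.

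Genes on the list of collagen processing enzymes differed in the same pair. In Sertoli cells 10 of 23 were lower, led by Serpinh1 (25.2-fold, 493 in Sertoli cells and 12422 in TM4), Pcolce, which enhances procollagen cleavage (6.68-fold), and Loxl1 (6.23-fold). Higher ones numbered 3: the transglutaminase Tgm2 (12.7-fold), Adamts3 (at least 6.29-fold) and the lysyl hydroxylase Plod2. Other interstitial matrix genes were lower in 15 of 43, with Ogn (29.0-fold) and Vcan (at least 9.82-fold) foremost, and higher in 7, among them Efemp1 (at least 18.2-fold), Vtn (13.3-fold) and Sparcl1 (at least 11.7-fold). Other basement membrane genes were higher in 2 of 18 (Ntn4 and Smoc2) and lower in 1 (Lama3). Matrix receptors leaned the other way, with 9 of 24 higher, such as the syndecan Sdc4 (18.8-fold), the collagen receptor Ddr1 (17.6-fold) and the laminin receptor Dag1 (6.27-fold), and 4 lower. TGF-beta and CCN genes were split, 3 higher and 4 lower of 16. These list counts stand beside 17.8% higher and 16.1% lower over all genes in this pair. Fibroblast markers summed to 4724 in wild-type Sertoli cells, against 7779 in TM4, where Pdgfrb and Thy1 were below the floor. Of 8 fibroblast markers tested, 2 were higher and 3 lower in Sertoli cells, with a median log2 ratio of 0.34. Of 10 peritubular and smooth muscle markers, 2 were higher and 2 lower, with a median of -0.47. Among the lower ones, Tagln read 141 in Sertoli cells, against 2907 in TM4. The part of contaminating cells or of culture in these differences was not tested.

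Between TM4 cells with and without transfection of ERM, few matrix genes were 2-fold apart. The 3 Etv5 probe sets themselves read 1.13-, 1.17- and 1.51-fold higher on the array with ERM, so the arrays show only a small gain of the transfected gene's signal. Which part of Etv5 the construct carries is not stated in the labels. Of 33 members 1 was at least 2-fold lower, or 3.03% against 0.421% of all genes, and none was higher, where 0.303% of all genes were. The lower one was Omd, which encodes osteomodulin, a leucine-rich proteoglycan known from bone. It read 107 with ERM, against 1004 without, 9.42-fold lower on its only probe set. The Sertoli arrays read 236 and 283 for Omd in knockout at 4 and 10 weeks, against 265 in wild type, so no difference of that size was seen there.

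Several matrix genes that read high in TM4 were nearly alike on both arrays on the probe set used. Col1a1 read 5318 with ERM, against 5974 without, and Fn1 read 10115 with ERM, against 10450.3 without. Thbs2 read 8646 with ERM, against 10049 without, and Bgn 6868 with ERM, against 7520.4 without. The dimmer Fn1 probe set 1437218_at differed more, at 486 with ERM, against 255 without, a log2 ratio of 0.93. All 5 fibrillar collagen chains had log2 ratios between -0.22 and -0.016, and those of collagen VI lay between -0.27 and -0.092. The members' median was -0.062, against 0.004 over all genes. Below 0 were 25 members and above 0 8, or 75.8% below, against 49.2% of all genes.

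The laminin Lamb1, the collagen chain Col4a1 and the thrombospondin Thbs1 had ratios of -0.0099, 0.014 and -0.065 in log2 units. On the probe sets used the highest member was Nid1, at 465 with ERM against 323 without, a log2 ratio of 0.52, but its second probe set stood at -0.27. Col4a3, a collagen IV chain of specialised basement membranes, had 0.41, and Tnc and Eln 0.29 and 0.24. Of the pathway lists, none held a gene past 2-fold in either direction: 0 of 23 collagen processing enzymes, 0 of 42 other interstitial matrix genes, 0 of 16 other basement membrane genes, 0 of 24 matrix receptors and 0 of 15 TGF-beta and CCN genes. Over all genes the shares were only 0.421% lower and 0.303% higher.

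In whole testis at 4 weeks, matrix genes were on balance slightly higher in ERM knockout and decorin alone passed 2-fold. Of 28 members 1 was higher, 3.57% against 0.532% of all genes, and none lower, against 0.852%. Members above 0 numbered 21 and those below 0 7, or 25.0% below, against 52.1% of all genes. Their median log2 ratio was 0.12, against -0.014 over all genes.

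Dcn read 2577 in knockout testis, against 1262 in wild type, 2.04-fold higher. Lamb1 followed at 309 in knockout, against 171 in wild type, a log2 ratio of 0.85 with 0.19 on its other probe set. Both genes were thus higher in knockout testis and lower in knockout Sertoli cells at 4 weeks, although the array designs differ. Col15a1, a collagen of basement membrane margins that was below the floor in Sertoli cells, read 423 in knockout, against 260.4 in wild type.

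The basement membrane collagens above the floor all had ratios above 0. Col4a1 and Col4a2 had testis log2 ratios of 0.45 and 0.11, and Col18a1 had 0.51 with 0.17 to 0.40 on its 4 other probe sets. Lama1, Lama5 and Lamc1 were at 0.34, 0.34 and 0.35, with -0.35 on the other Lama5 probe set. Nid1 and Hspg2 were at -0.044 and -0.23.

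Among interstitial genes Col3a1 read 754 in knockout, against 517 in wild type, a log2 ratio of 0.55, whereas Col1a1 had 0.35 and -0.20 on its 2 probe sets. Col1a2 was at 0.18, Col5a1 at 0.038 and the collagen VI chains between -0.058 and 0.36. Sparc read 2010.4 in knockout, against 1551 in wild type. Bgn, which was lower in knockout Sertoli cells at 4 weeks, read 743 in knockout testis, against 795 in wild type, within the spread between probe sets. Fn1, Thbs2 and Lox had the log2 ratios -0.14, -0.32 and -0.57, the last with 0.035 on its other probe set. Lox read 99.5 in knockout testis, just below the floor, so its -0.57 is a limit. Fbln1, Fbln2, Eln, Postn and Tnc lay between 0.022 for Postn and 0.081 for Tnc and Eln. Col4a3, Col5a2, Col8a1, Lum and Omd were below the floor on both testis arrays.

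**Figure D4:**
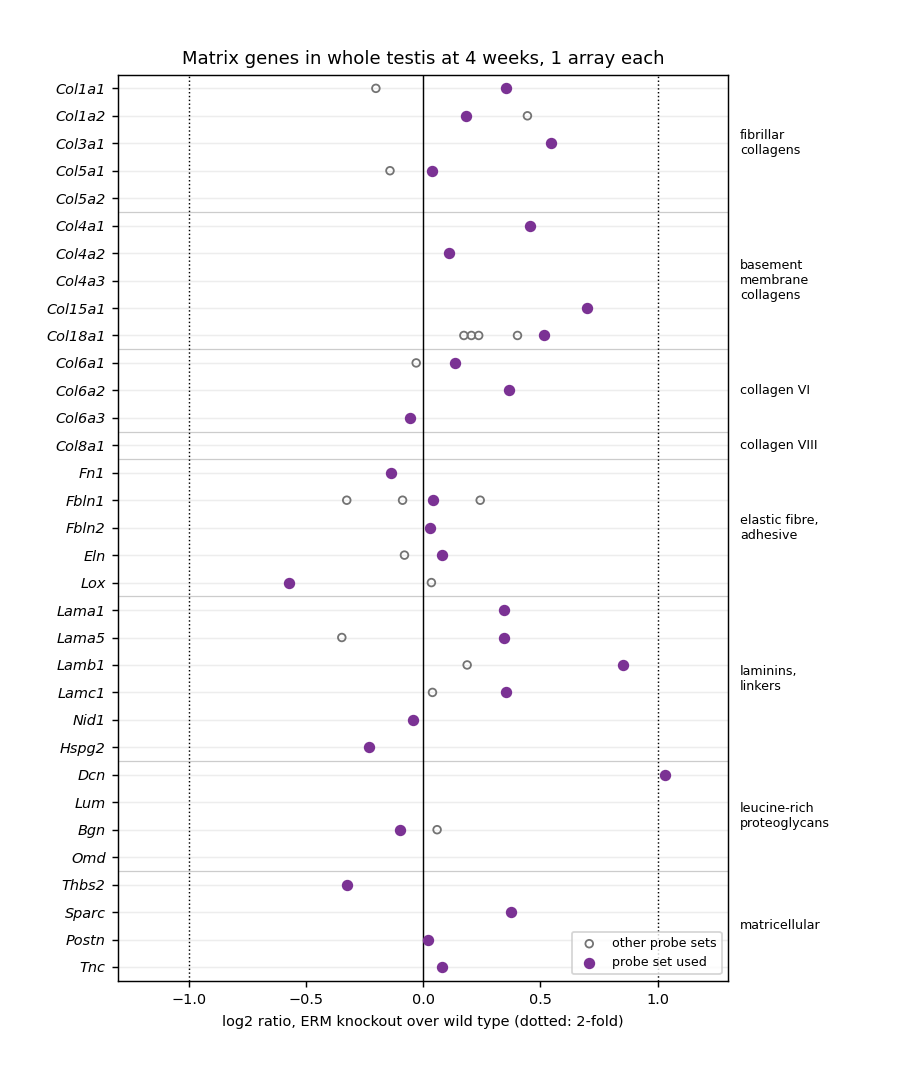
Log2 ratios of 33 matrix genes in whole testis at 4 weeks, ERM knockout over wild type, with filled points for the probe set used, open points for the gene's other detected probe sets and dotted lines at 2-fold. Dcn (1.03) alone lies past 2-fold, Lamb1 (0.85) comes next, and genes below the floor on both arrays have no point.

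Other matrix genes of the testis passed 2-fold in a few cases. Over all genes in testis, 0.532% were higher and 0.852% lower. Interstitial matrix genes were higher in 2 of 30, the TGF-beta binding protein Ltbp1 (2.08-fold) and the leucine-rich proteoglycan Kera (2.02-fold), and matrix receptors in 1 of 18, Ddr1 (2.11-fold). None was lower in these lists, and neither the 14 collagen processing enzymes, the 12 other basement membrane genes nor the 13 TGF-beta and CCN genes held any past 2-fold. Marker sums in knockout testis were 24773 for Sertoli cells, against 18492 in wild type, 3249.7 for fibroblasts, against 2496, and 8870.3 for peritubular and smooth muscle cells, against 7576, and 6196 for macrophages, against 4630.0. The fibroblast marker Pdgfra was 2.26-fold higher, and Pdgfrb was below the floor on both arrays. Germ cell markers summed to 56730.0 in knockout and 55958 in wild type. The part of cell composition in the testis differences was not tested.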

How the data were processed

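The deposited files hold single-colour Affymetrix signal intensities, with no scaling or software stated in their headers, from 45101 probe sets for the Sertoli and TM4 arrays and 12488 for testis. Labels and headers do not state the authors' own steps from scan to intensity. Each array was divided by its mean between percentiles 2 and 98 and multiplied by 500, and values under 100 were raised to that floor before log2 ratios were taken with Python 3.11.15, numpy 2.4.6 and pandas 2.3.3. Probe sets were named from the GEO platform annotation, those naming several genes were left out, and the probe set with the highest mean over a table's arrays stood for its gene. A gene was tested where at least 1 of 2 arrays reached the floor. Arrays were compared only within their own table, and the 3 Sertoli comparisons share arrays pairwise. The calculation was tested on simulated data. Members, pathway lists and marker lists were chosen with earlier results of these data known. All members are named, and from the lists the genes farthest apart, up to 6 a list. Alternatives covered scaling, centring, quantile normalization, the floor, the fold threshold and the choice of probe set. Array number, not read depth, limits the precision.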

Additional observations from a re-analysis of the deposited data

Results flagged for a closer look

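Decorin (Dcn) differed in opposite directions in the 2 pairs of 4-week knockout and wild-type arrays. Its log2 ratio was 1.03 in whole testis and -1.04 in primary Sertoli cells. The array designs and probe sets differ between these pairs, each group is 1 array, and the difference was not tested.

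Thrombospondin 1 (Thbs1) had a log2 ratio of -1.94 in knockout Sertoli cells at 4 weeks and of 1.11 in knockout Sertoli cells at 10 weeks, each over the wild-type array of 4 weeks. Both ratios share that wild-type array, and the difference was not tested.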

How the results depend on the processing

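Of the counts and medians recomputed under other settings, 138 stayed within 1.5 times the count or, for a median log2 ratio, within the spread between probe sets, and 12 did not. Of the recomputed ratios of single members past 2-fold, 215 stayed within that spread, 53 moved beyond it and 2 changed sign. With the floor raised to 0.4 of the trimmed mean, Omd in TM4 moved to -2.33 and Fbln2 between the knockout ages to 0.14. The medians still moved, over 0.064 to 0.18 in testis, -0.30 to -0.11 in knockout Sertoli cells at 4 weeks, -0.075 to -0.0069 at 10 weeks, 0.029 to 0.17 between the ages and -0.066 to -0.042 in TM4, and 15 to 22 members were lower in Sertoli cells than in TM4. At a 1.5-fold threshold there were 3 higher members in testis (1 at 2-fold), 1 higher in knockout Sertoli cells at 4 weeks (0), 1 lower between the knockout ages (0), and 2 higher and 5 lower in knockout at 10 weeks over wild type (1 and 1). With ratios averaged over all probe sets of a gene, 3 members in place of 6 were lower in knockout Sertoli cells at 4 weeks and 2 in place of 5 were higher at 10 than at 4 weeks. Without probe sets prone to cross-hybridisation, 3 in place of 5 were higher between the ages, and Col18a1 turned to -0.33 between Sertoli and TM4 cells. With the floor lowered to 0.1 of each array's trimmed mean, 3 members in place of 1 were lower in TM4 with ERM and 2 in place of 1 in knockout at 10 weeks over wild type. On the values as deposited, the members' median between Sertoli and TM4 cells was -0.79 in place of -1.50. Col4a1 turned to 0.47 there because its brightest probe set was then 1452035_at, which had -0.24 after scaling, in place of 1426348_at, which had -1.82. Counting only members whose detected probe sets all lay in one direction, a setting chosen after seeing the data, left 2 in place of 4 higher in Sertoli cells than in TM4. Beyond such changes of probe set, the causes were not tested. No paired analysis was possible because each group is 1 array.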
